A study of Danio rerio with 12 samples.

Results

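Of the 15674 promoter windows in an ATAC-seq table of whole zebrafish embryos, 639 windows (4.08%) were nearly closed in the wildtype libraries. They were chosen by level alone, as the windows whose mean over the 6 wildtype libraries lay above 0 and below 5 on the log2 scale of the table. The median of these members was 4.55 in wildtype, against 7.37 over all windows. Another 38 windows with a wildtype mean below 0 and 16 windows without any tag fell outside the rule. The members carried 568 gene names and merged into 569 separate places in the genome, since 109 of them (17.1%) overlapped another member and 49 held the same values as their neighbour.

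The embryos were wildtype siblings and supt16h-/- mutants, collected whole at 32 hours post fertilization (hpf) and deyolked, and each library was made from 50000 cells. There were 12 libraries, 6 per group, which the series text describes as 3 biological replicates with 2 technical replicates each. The labels name no allele for the mutants and do not say whether the embryos of a library came from 1 clutch, and the series text speaks of 40 embryos without saying how they were shared out. Values below are means of the 2 technical libraries for each biological replicate, and an SD is over the 3 biological replicates. Because nothing states that the replicates came from separate parents, p-values measure only the spread between these samples.

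ATAC-seq uses the Tn5 transposase to cut accessible DNA, so a promoter wrapped in nucleosomes or other packaging gives few tags. Promoters of widely used genes are usually open in most cells, while promoters of genes used by one rare or late cell type often give little signal in a whole embryo. Supt16h is a subunit of the FACT complex, a histone chaperone that takes nucleosomes apart and rebuilds them during transcription and replication, which is why its loss raises the question of whether closed promoters open. Each library averages over all cells of the embryos, so fewer cells with an open promoter and a less open promoter in each cell cannot be told apart.

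All windows were 4000 bp long and centred on an annotated start site, so their levels can be compared without a length correction. The deposited values were already normalized and on a log2 scale that pulls weak windows together, and no counts were given, so the depth is unknown. The median SD of the 12 libraries fell from 0.13 for members between 4 and 5 to 0.03 for members between 0 and 1, and a difference between groups at the weakest windows is therefore compressed. Libraries stood apart in the number of windows they held above 0 and below 5, from 524 in the first technical library of wildtype replicate 1 to 859 in the first technical library of mutant replicate 2. The median level of the members ran from 4.45 to 4.64 across the wildtype libraries and from 4.44 to 4.55 across the mutant libraries. None of 32 markers of muscle, nerve, blood, endothelium, epidermis, heart, endoderm and pigment was a member. Only 4.08% of all windows were members, so a list of this size would hold few in any case. The count therefore cannot check the tissue label. The lowest of the markers were tnnt2a, a heart troponin, at 5.11 and mitfa, a pigment cell regulator, at 5.17.

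**Figure D1:**
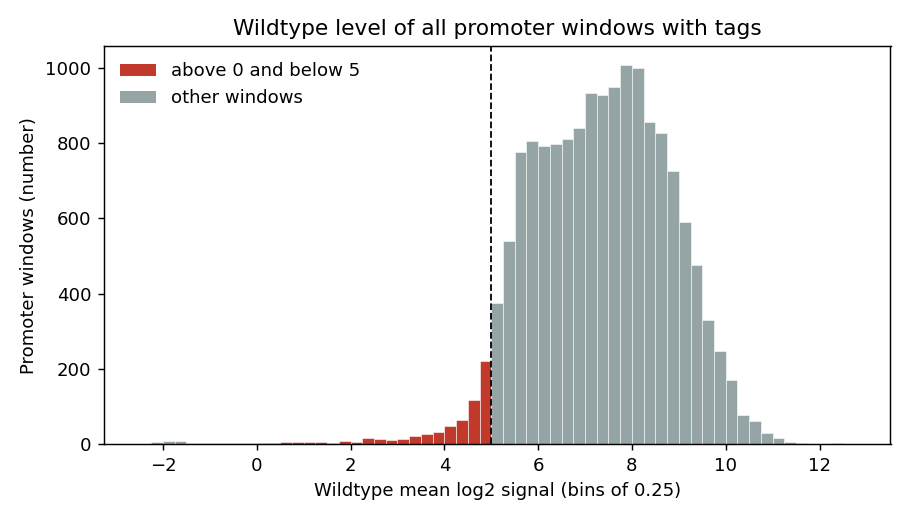
Number of promoter windows in bins of 0.25 of the wildtype mean log2 signal, with the windows between 0 and 5 in red, the other windows with tags in grey and the limit of 5 as a dashed line. The members form the lower tail of a distribution that peaks near 8, and most of them stand close to the limit.

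Most members lay just under the limit. A wildtype mean between 4 and 5 was held by 453 members (70.9%), a mean between 3 and 4 by 98, between 2 and 3 by 48, between 1 and 2 by 23, and between 0 and 1 by 17. Just inside the limit stood pcdh1gb2, ppfia2 and slc12a9, each at 4.998, and just outside it stood ptprdb, dicp3.3 and zgc:171435, each at 5.001. The limit thus cuts through a continuous slope of levels and marks no gap between closed and open promoters.

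The lowest member was rnf34b, a ubiquitin ligase gene, whose window on chromosome 10 at 41842074 to 41846074 (GRCz10) stood at 0.11, 0.07 and 0.10 in wildtype replicates 1, 2 and 3. In mutant replicates 1, 2 and 3 it stood at 0.05, 0.07 and 0.06. The next 3 places were copies of the microRNA mir2185 at 0.11, 0.28 and 0.41, followed by a transcript without a gene name on an unplaced contig at 0.53, the microRNA copy mir430a-18 at 0.61, si:busm1-160c18.6 at 0.66, zgc:101806 at 0.66, si:ch211-181p13.2 at 0.70, zgc:92511 at 0.71 and mhc1uka, an MHC class I gene, at 0.75. On the other side of the lower bound, the nearest windows that the rule left out had wildtype means of -0.21 at ppifb and -0.39 at socs3a. Many of these lowest windows are at accessions placed at several positions. They are rnf34b, the mir2185 copies, the transcript without a gene name, si:ch211-181p13.2, ppifb and socs3a. Their levels are uncertain, since the counting of tags that match several copies is not known.

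Beyond their level, the members differed from all windows first in the kinds of gene among them, though no kind took in most members. Sorted by symbol into 26 lists, 162 members belonged to a named family, 247 carried only a clone name or a similar provisional symbol, and 230 belonged to none of the lists. The 247 came from 2043 windows with such provisional names (12.1%). The shares below are read against the 4.08% of all windows that were members. The lists were written with earlier results of these data known, so the shares are given as descriptions without a test. Smaller lists outside the 26 were added later, such as MHC, nitr, illr, gig2, chemokine ligand, taste receptor and clustered protocadherin genes. A high share on an added list can follow from the way the list was drawn.

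Genes of antigen recognition were among the families with the largest member shares. Of 112 windows of antigen recognition genes, 18 (16.1%) were members, and 6 of 20 windows of MHC class I and class II genes were. These MHC genes, which present peptides to T cells, ranged from mhc1uka at 0.75 ± 0.07 (SD, n = 3) on chromosome 19 through mhc1lja at 1.32 ± 0.02, mhc1lfa at 1.72 ± 0.03 and mhc2dab at 3.30 ± 0.16 to mhc1lga at 4.70 ± 0.07 and mhc1ula at 4.86 ± 0.04 in wildtype. The mutant means of the same 6 genes were 0.73, 1.34, 1.71, 3.28, 4.64 and 4.85. None of the 6 had groups that stood apart.

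The genes that cut, carry and load the peptides for MHC class I sat in one stretch of chromosome 19 and were members in 7 of 7 windows, a list made after the values were seen. tapbp.1 and tapbp.2, whose windows overlap and which encode forms of the loading factor tapasin, both stood at 3.23 in wildtype. Next came psmb8a at 4.05, psmb9a at 4.57, psmb12 at 4.58 and psmb10 at 4.59, which encode proteasome subunits, and abcb3l1, a peptide transporter gene, at 4.98. The windows of psmb8a, psmb10, psmb12, psmb9a and abcb3l1 followed one another between 7189655 and 7207476 with no other start site of the table between them. At psmb12 the wildtype replicates read 4.54, 4.64 and 4.55 and the mutant replicates 4.52, 4.37 and 4.25, so every mutant replicate lay below every wildtype replicate. The psmb10 window overlaps it nearly in full and is no separate observation.

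Receptors and signals of lymphocytes and myeloid cells were also frequent. The nitr genes, a fish family of immune-type receptors, gave 6 of 31 windows, from nitr6a at 4.43 to nitr3a at 4.76. These 6 are already counted among the 18 members of the antigen recognition list above, and the windows of nitr3a and nitr3c overlap nearly in full. Chemokines, cytokines and interferons with their receptors gave 20 of 125 windows (16.0%), of which 12 were among the 37 windows of ccl and cxcl ligands, which attract leukocytes. The lowest was 1 of the 2 member windows of ccl34a.4 at 1.73 and the highest ccl34b.9 at 4.97. Among cytokine genes and their receptors stood il6, an inflammatory cytokine, at 4.55 ± 0.02, il12ba at 4.80 ± 0.01, il26 at 4.95 ± 0.15, il2rb, a receptor chain for T cell growth signals, at 4.06 ± 0.02, and il10ra at 4.87 ± 0.09. The lectin-like receptors illr1, illr2 and illr3 were members in 4 of 5 windows, side by side on chromosome 19. The 4 include overlapping windows of illr3, which are no separate observations. Further single genes outside the lists, picked out after their values were seen, were foxp3a, which in mammals directs regulatory T cells, at 4.88, itk, a T cell kinase, at 4.77, syk at 4.88 and foxn1, the regulator of thymic epithelium, at 4.49. No share of members can be given for genes of this kind. The list of innate immune sensors and effectors gave 8 of 171 windows (4.68%), close to the share over all windows. That share holds for this list only. Its members did not include the nitr and illr genes above or the gig2 genes, named for induction by grass carp reovirus. The gig2 genes gave 3 of 12 windows.

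Genes of organs that start work later in life formed a smaller group. Digestive enzymes and lipoproteins gave 8 of 55 windows (14.5%), and these were the protease genes ctrl at 4.43, cpa1 at 4.52, cpa5 at 4.62, try at 4.70 and cpa4 at 4.86, together with apoa4b.1 at 4.88, fabp1a at 4.99 and the lipase gene cel.1 at 4.99. The sterol transporter genes abcg8 and abcg5, which share a divergent promoter region, stood at 4.81 and 4.84. Serum and hatching proteases with their inhibitors gave 3 of 60 windows (5.00%), near the share over all windows, and these were the coagulation factor genes f10, f9b and f5 at 3.65, 4.61 and 4.91. Pituitary and thyroid genes, again picked after the values were seen, included cga, the shared alpha subunit of glycoprotein hormones, at 2.37 ± 0.04, fshb at 4.91 ± 0.15, prl2 at 4.70 ± 0.09 and the thyroglobulin gene tg at 4.895 ± 0.06. No list of pituitary or thyroid genes was counted, so no share of members can be given for them. Use of a gene late in life was not enough for membership. Of 7 genes with a window on a list for tissues that an embryo of 32 hpf should lack, only cpa5 was a member, while rag1, which rearranges antigen receptor genes, stood at 7.40 and the egg coat gene zp3b at 7.55.

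Sensory families were split. Olfactory and taste receptors together gave 11 of 179 windows (6.15%), made up of 3 of 11 taste receptors, 4 of 34 trace amine receptors and 4 of 117 odorant receptors. The lowest was tas1r2.1, a taste receptor gene at an accession placed at several positions, at 0.83, and the highest or128-7 at 4.99. Opsins and other phototransduction genes gave 2 of 76 windows, pde6g at 4.72 and gngt2b at 4.85, and crystallins gave 2 of 55. The clustered protocadherins, adhesion molecules that give neurons their surface identity, gave 8 of 58 windows, from pcdh2g4 at 1.76 to pcdh1gb2. Receptors, channels and transmitter genes of the nervous system gave 8 of 287 windows (2.79%), with scn1lab lowest at 4.41 and trpv4, a channel for osmotic and mechanical stimuli, highest at 4.93.

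Several families held no member, and they were not all of broad or early use, since egg genes were among them. None was found among 49 windows of hox genes, 114 windows of other homeobox genes and 83 windows of cell cycle genes. The same held for 25 of germline genes, 30 of egg genes, 12 of hemoglobins and 5 of transfer, small nuclear and nucleolar RNA genes. With 4.08% of all windows as members, lists as short as the hox, germline, egg, hemoglobin and small RNA lists would hold few in any case. Their lack of members therefore says little about these families. Ribosomal protein genes gave 1 of 90 windows, that of rps23, and histone genes gave 1 of 17, that of the maternal linker histone h1m, on an unplaced contig at 4.81. Zinc finger genes gave 5 of 137 windows (3.65%), solute carriers 10 of 308 (3.25%) and the P450 enzymes with the conjugating transferases 8 of 157 (5.10%), all near the share over all windows. Keratins with claudins gave 1 of 46.

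**Figure D2:**
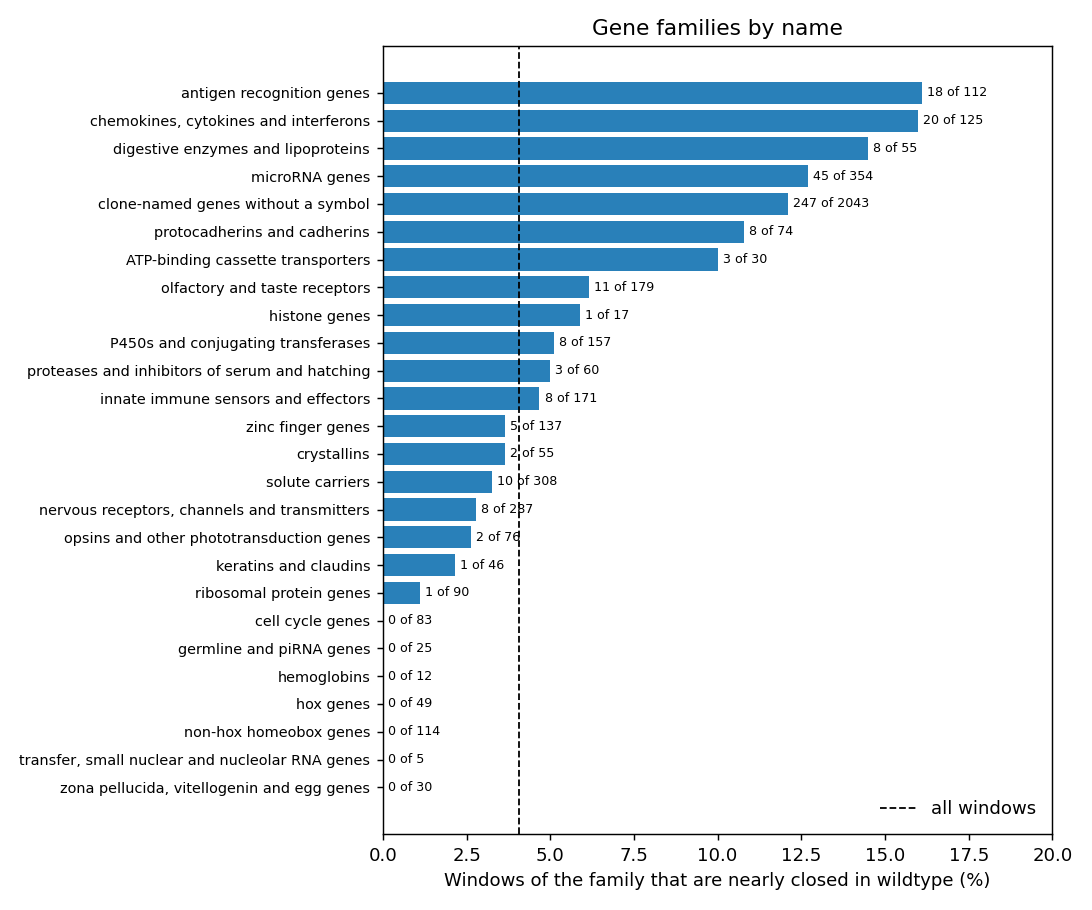
Share of each family's windows that were members, in percent, with the numbers beside each bar and the share over all windows (4.08%) as a dashed line. Antigen recognition genes, cytokines, digestive enzymes, microRNAs and clone-named genes reach above 12%. Most microRNA members are repeated copies of mir2185 and mir430. At 0 stand hox, other homeobox, cell cycle, germline, egg and hemoglobin genes, and transfer, small nuclear and nucleolar RNA genes.

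The second difference from all windows was repetition in the genome, which applied to a minority of the members. An accession that the table places at several positions accounted for 115 members (18.0%), against 237 of all windows (1.51%), and 48.5% of such windows were members. No source used here says how tags that match several copies were counted, and the levels of these windows are therefore uncertain. Some copies of one gene stood far apart, which was seen in krtcap2 at 3.31 with another window at 7.35, cib1 at 2.39 with another at 6.98, and the nuclear receptor gene nr4a2a at 1.24 with another at 6.12. In all, 27 gene names outside the mir430 copies had a member window and also a window that was no member. The other window was not always more open. For mir2185-1, mir2185-2, mir2185-3, zgc:194207, fbxo48, rnf34b and LOC100005356 the highest other window with tags was lower, at -0.81 to -1.71. The mir2185 names among these share the same windows. Leaving out members at repeated accessions, on unplaced contigs and on windows that run past a contig's start left 518 members with a wildtype median of 4.64.

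MicroRNA genes made up 45 members of 354 microRNA windows (12.7%), and 32 of the 45 were placed at several positions. Copies of mir2185 gave 16 of their 29 windows, spread over chromosomes 1, 5 and 17, from 0.11 to 4.18 in wildtype. The other mir2185 windows were lower still and not more open. The highest of them with tags stood at -0.81, and the median of all 29 was 0.28. Copies of the mir430 family, which clears maternal messenger RNA in the early zebrafish embryo, gave 18 of 52 windows. The other 11 were single microRNA genes such as mir738 at 3.59, mir2193 at 4.12, and the neighbours mir212 at 4.95 and mir132-1 at 4.99. Copies of mir2185 and mir430 thus made up most of the 45, and the 12.7% does not describe other microRNA genes.

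The mir430 cluster on chromosome 4 showed how sharply level could change within one array. Of its 51 windows, which overlap heavily, 18 were members at 0.61 to 2.68 in wildtype and 0.60 to 2.69 in the mutants, and the highest of the other 33 stood at 10.4. Moving along the array, the windows starting between 28736728 and 28742555 lay between 8.51 and 10.4, the window starting at 28742812 fell to 5.87, and the window starting at 28743018 fell to 2.34. Within this low stretch the level was lowest at 1.07 for the window starting at 28748284, and it was back at 5.75 in the next window, which starts at 28748704. Of the 17 windows in the stretch, 16 were at accessions placed at several positions. Their levels are uncertain, since the counting of tags that match several copies is not known, and a closed promoter cannot be told from lost tags. The wildtype and mutant means followed the same course, with all 18 members below 5 in both groups.

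**Figure D3:**
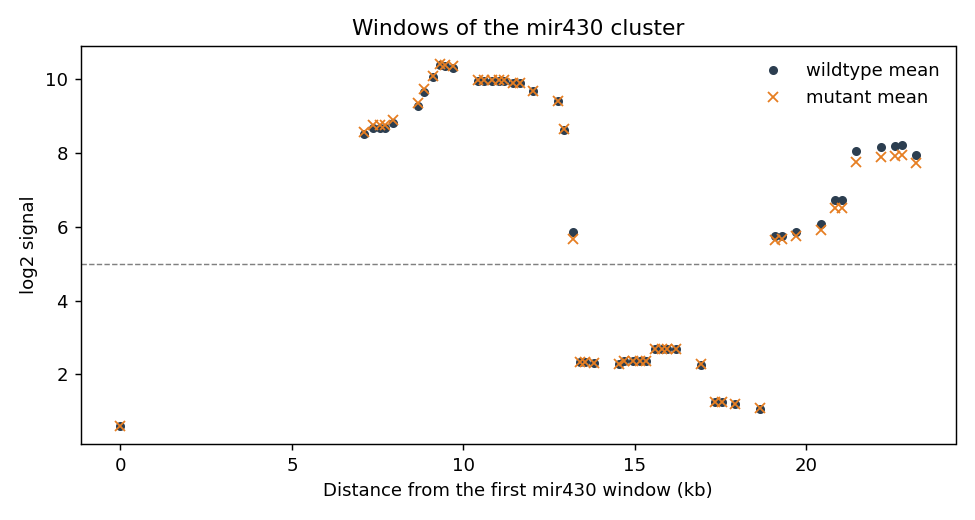
Mean log2 signal of the 51 windows of the mir430 cluster against the distance of each window from the first one in kb, with wildtype means as dots, mutant means as crosses and the limit of 5 as a dashed line. Windows of 8 to 10.4 give way to a low stretch of 1.07 to 2.68, and the groups overlie each other throughout that stretch. Nearly all windows of the stretch are at accessions placed at several positions, so their levels are uncertain.

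Members were also unevenly placed. Chromosome 4 from position 28000000 onward held 51 members among 187 windows (27.3%), against 14 of 447 (3.13%) on the part before it. Chromosome 8 held 60 of 760 windows (7.89%) and chromosome 11 the smallest share, 7 of 498 (1.41%). These shares count overlapping windows and repeated copies one by one. Members stood next to one another in 93 runs that took in 273 members, and 8 runs were 5 or more windows long. The longest run held 20 windows between 34518990 and 34646961 on chromosome 8. All of them were repeats of LOC573060, LOC100006889, si:busm1-37i06.3 and zgc:77614, whose other copies reached 7.05. Windows of these names at one copy started a few bp apart and held the same or nearly the same values. The run therefore held far fewer separate places than windows, and such repeats also weigh on the chromosome 8 count. A run of 8 windows on the same chromosome, between 36352944 and 36444894, held mhc2dab and neighbours from 0.66 to 3.50. Several windows of that run overlapped each other. A run of 7 on chromosome 13 held the kinase gene pimr151 and provisional gene models from 2.77 to 4.63. Crowding of start sites was much the same as elsewhere, since the nearest other start lay a median of 17200 bp away for members and 16980 bp for all windows.

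The question put to the mutants was whether any of these promoters opened. Since wildtype values chose the members, the difference between groups among them is described here and not tested. In the mutants 12 members reached a mean of 5 or more, the highest at 5.18, and none reached 5.5. All 12 had stood between 4.77 and 5 in wildtype. Of the 186 members below 4 in wildtype none came near, and the highest mutant mean among them was 4.02, at znf1068. The mutants had 689 windows with a mean above 0 and below 5, of which 627 were also members, and the other 62 had a wildtype mean of 5 or more that went no higher than 5.20. On the scale of the library columns the crossings in both directions were thus small steps over a line. That scale compresses weak windows by a transformation that no source used here names. The log2 fold changes of members in the authors' deposited table, whose sign is opposite, were larger in size at these windows, with -1.04 at zgc:66388 and 1.21 at si:ch211-225k7.5, where the library columns differed by 0.36 and -0.41. Over all members the values in the authors' deposited table reached 1.38, at si:dkey-83f18.9.

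**Figure D4:**
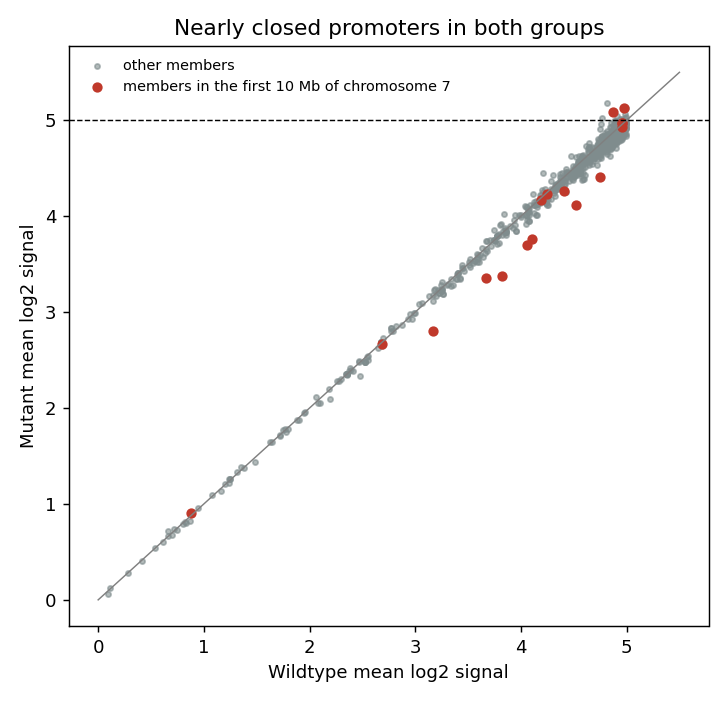
Mutant mean against wildtype mean log2 signal for the 639 members, with the 17 members in the first 10 Mb of chromosome 7 in red, the line of equal level drawn through and the limit of 5 dashed. Members lie along the line of equal level from 0 to 5, a few cross 5 by less than 0.2, and the red points hold several of the largest departures.

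The counts of crossings moved with scaling and with single replicates. The 12 and 62 became 28 and 35 under quantile normalization, 23 and 40 with library medians set equal, and 28 and 30 under cyclic loess. Without wildtype replicate 1 they were 26 and 48, without mutant replicate 3 they were 25 and 50, and without the 2 libraries at the ends of the range given above, which was tried after the data were seen, they were 38 and 39. Choosing windows on 2 wildtype replicates and reading the one left out gave the size of such crossings inside a group. Of 667 windows chosen without wildtype replicate 1, 101 (15.1%) stood at 5 or more in that replicate, and 3.90% to 10.6% did in the mutant replicates. Of 633 chosen without replicate 2, 31 (4.9%) crossed in the held-out replicate and 3.16% to 6.95% in the mutants. Of 623 chosen without replicate 3, 2.89% crossed in it and 3.05% to 6.90% in the mutants. The held-out wildtype share thus lay above the mutant shares for replicate 1, among them for replicate 2 and just under them for replicate 3.

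Across all members the median difference, mutant minus wildtype, was -0.02 on the log2 scale, against -0.01 over all windows with tags, and it became slightly positive, by less than 0.01, under each of the 3 other scalings. The difference was under 0.1 in size at 533 members and over 0.2 at 14, of which 5 were higher and 9 lower in the mutants. The extremes were 0.36 at zgc:66388 and -0.44 at zgc:194686, a window whose groups overlapped. Of the 450 members that passed the filter on low values, 3 (0.667%) were called higher and 2 (0.444%) lower by limma at an adjusted p under 0.05, beside 8.02% and 3.58% of all windows tested. In 15 of the 639 members every mutant replicate lay above every wildtype replicate, beside 15.3% of all windows, and in 46 every mutant replicate lay below, beside 13.9%. With the replicate number as a block the calls were 5 higher and 14 lower, but with the block under cyclic loess scaling they were 14 higher and 3 lower. Without wildtype replicate 3 or without mutant replicate 3 only 1 of the 5 calls was kept. In the authors' deposited table no member had an adjusted p under 0.05, whereas that table called 11.9% of all windows with the mutants higher and 7.06% with the mutants lower. The lowest adjusted p of a member in the authors' deposited table was 0.884, and 31 members had an unadjusted p under 0.05 in it. Nothing is read from these counts, because the rule used values of the same contrast.

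Among the members that were higher in the mutants, zgc:66388 had the largest difference. Its window starts at position -1966 of an unplaced contig, so part of it does not exist in the assembly. The wildtype replicates read 4.78, 4.83 and 4.82, and the mutant replicates 5.05, 5.17 and 5.31. The gene rps23, which encodes a protein of the small ribosomal subunit, lies on chromosome 11 with its window at 42263903 to 42267903. It read 4.77, 4.77 and 4.77 in wildtype and 4.96, 5.07 and 5.05 in the mutants, a difference of 0.26. The single libraries nearly touched, since the highest wildtype library stood at 4.86 and the lowest mutant library at 4.87. The median of the 90 ribosomal protein windows was 8.54, so rps23 remained far under its family in both groups. The gene sap30l, which encodes a part of a histone deacetylase complex, read 4.19, 4.25 and 4.20 in wildtype and 4.35, 4.53 and 4.49 in the mutants, with no mutant replicate at 5.

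Smaller differences with groups apart followed. At lcp1, which encodes the leukocyte protein L-plastin, the replicates moved from 4.80, 4.67 and 4.81 to 4.92, 4.95 and 5.02. Its window lies on chromosome 9 at 56668983 to 56672983. The window of si:dkey-83f18.3 on chromosome 7 moved from 4.94, 4.80 and 4.87 to 5.17, 4.96 and 5.13. Another 4 members of this kind crossed from just under to just over 5, with wildtype and mutant means of 4.98 and 5.13 at zgc:174688, 4.97 and 5.12 at the scaffold gene gipc1, 4.91 and 5.05 at the glycosyltransferase gene b3galnt2 and 5.00 and 5.13 at fubp3. The window of rab9a was lower, at 3.80 and 3.91. In another member window of rab9a, which overlaps it nearly in full, the groups did not stand apart. The other 5 of the 15, tm2d1, lcp2a, cep128, neu3.3 and LOC100150619, had differences under 0.1 and mutant means under 5. The mutant means of mir190b at 5.06, the histidine-degrading enzyme gene hal at 5.03 and the sialyltransferase gene st3gal4 at 5.02 were also among the 10 highest, with groups that overlapped. The difference turned to -0.02 at hal without wildtype replicate 2 and to -0.02 at st3gal4 without wildtype replicate 3. The gene st3gal4 has another window at 8.12.

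The members with the largest differences downward lay together on chromosome 7. At si:ch211-225k7.5 (4578356 to 4582356) the wildtype replicates read 4.62, 4.21 and 4.75 and the mutant replicates 4.17, 4.09 and 4.10. At zgc:195077 (3669728 to 3673728) they read 4.63, 4.79 and 4.81 in wildtype and 4.41, 4.52 and 4.30 in the mutants. The groups did not overlap in either window. At si:dkey-192d15.2 the wildtype replicates were spread over 3.23, 2.84 and 3.45, whereas the mutant replicates sat at 2.80, 2.82 and 2.80. The overlapping windows of si:dkey-28d5.13 behaved alike, at 3.97, 3.75 and 4.45 in wildtype against 3.67, 3.70 and 3.73 in the mutants for the first of them. Without wildtype replicate 3 the difference shrank from -0.35 to -0.16 at this window and from -0.37 to -0.23 at si:dkey-192d15.2. In 3 of these 4 genes wildtype replicate 3 was the highest and replicate 2 the lowest.

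The first 10 Mb of chromosome 7 also hold supt16h itself, whose window lies at 1441156 to 1445156. Its replicates read 8.70, 8.22 and 8.72 in wildtype and 8.61, 8.51 and 8.75 in the mutants, which says nothing of the genotype, since an ATAC-seq level at a start site does not show a mutation within the gene. Of the 17 members in that stretch, 8 had a difference over 0.2 in size, against 6 of the 622 members elsewhere, and the median size of the difference was 0.15 against 0.04. The groups stood apart at 9 of the 17, 7 of them with the mutants lower, and at 52 of the 622. Among windows that were no members they stood apart at 34 of 85 in the stretch and 4483 of 14934 elsewhere. The stretch was singled out after the values were seen, and whether closeness to the mutated gene bears on these differences was not tested.

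**Figure D5:**
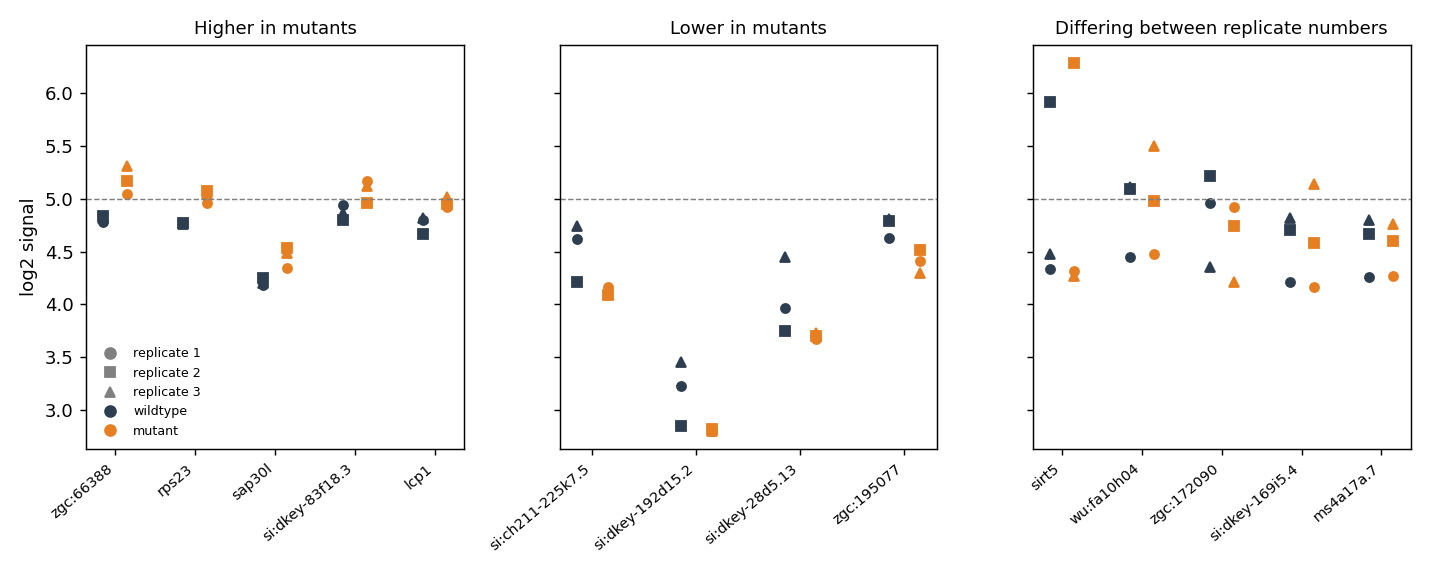
Log2 signal of each biological replicate (mean of 2 libraries, marked by shape) at selected members, wildtype in dark blue and mutants in orange, with the limit of 5 dashed. The left panel holds members higher in the mutants, the middle panel members lower in the mutants, and the right panel members whose level followed the replicate number in both groups, led by sirt5.

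Levels also differed between replicate numbers, a contrast other than the one between groups. The wildtype values that chose the members enter this comparison too, so its counts and p-values are given as descriptions. Same-numbered wildtype and mutant replicates deviated together, and an F test in limma for the replicate number, added after the data were seen, called 67 of the 450 tested members (14.9%), beside 7.37% of all windows tested. At 58 of the 67 the same replicate number was highest in both groups. The test itself picks windows whose same-numbered replicates agree, so this count is no separate support. Some of the 67 windows overlap, such as those of nitr3a and nitr3c, and are no separate observations. Without that choice the same number was highest in both groups at 58.8% of all members and 52.0% of all windows with tags. The largest case was sirt5, which encodes a mitochondrial deacylase, on chromosome 20 at 7077427 to 7081427. Its replicates read 4.33, 5.92 and 4.48 in wildtype and 4.31, 6.29 and 4.26 in the mutants (limma adjusted p = 1.3e-07). Replicate 2 thus lay above the limit of 5 in both groups, and replicates 1 and 3 lay below it in both. The group means of sirt5, 4.91 and 4.96, show nothing of this.

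The clone-named gene wu:fa10h04 on chromosome 4 read 4.44, 5.10 and 5.12 in wildtype and 4.48, 4.98 and 5.51 in the mutants (limma adjusted p = 8.7e-05). At zgc:172090 on chromosome 3 the values were 4.96, 5.21 and 4.35 in wildtype and 4.92, 4.75 and 4.21 in the mutants (limma adjusted p = 0.00011). The meiotic cohesin gene rad21l1 read 4.71, 4.47 and 4.93 in wildtype and 4.71, 4.42 and 4.99 in the mutants (limma adjusted p = 0.00039). Immune genes were among the 67, for example nitr6b at 4.84, 4.63 and 4.47 in wildtype and 5.04, 4.72 and 4.53 in the mutants (limma adjusted p = 0.0019), and ccl35.2 at 4.91, 4.61 and 4.48 against 4.87, 4.65 and 4.46 (limma adjusted p = 0.0021). In both of these, replicate 1 was highest and replicate 3 lowest in each group. The labels do not say what a replicate number marks, so parentage, day and library handling cannot be told apart as its content.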

How the data were processed

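Per the submitters' processing notes, the tools named were CASAVA 1.8, FastQC 0.11.2 and HOMER 4.9, with the build GRCz10 (danRer10). No aligner or treatment of duplicates is named there. The authors deposited 1 table of 16555 entries with 12 library columns of normalized values on a log2 scale, per the file headers and values, and with their own log2 fold change, p-value and adjusted p-value. That fold change has the opposite sign to the library columns at all 2977 windows the authors call, so directions here follow the library columns. The depth is unknown.

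Entries of 1 window were averaged (they differed by at most 0.219), leaving 15674 windows. Names of 548 of 567 unnamed entries came from RefSeq accessions, with names and gene types only. Technical pairs were averaged and 3 replicates compared with 3 in limma 3.58.1 (R 4.3.3; trend and robust options; Benjamini-Hochberg over 15431 windows with a mean of at least 4), after a test on simulated data. Other steps used Python 3.11.15 and pandas 2.3.3. Members, gene lists and the rule for named genes (highest mutant means, largest differences with groups apart, lowest levels, windows at the limits, ends of families, longest runs) were chosen with earlier results of these data known, some after the values were seen. Same-numbered replicates of the 2 groups deviated together (correlations over windows of 0.461, 0.513 and 0.534). For different numbers the correlations were -0.173 to -0.328. Deviations from a group mean cancel out over its replicates, so positive values for the same number push the others down. The negative values are therefore no separate support. The main comparison in limma was fitted without this pairing. The replicate number entered only as a block in alternative fits and in the F test between replicate numbers. Alternatives covered the limit, scaling, filter, replicates, technical pairs and the replicate block. Promoter sequence was not analysed here.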

Additional observations from a re-analysis of the deposited data

Results flagged for a closer look

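Of 42 groups of 6 libraries checked, most at named members and the others for summary counts and medians, 1 had a library far from the rest. Chance flags about 1 group in 20. At st3gal4 the second technical library of mutant replicate 3 stood at 4.72, below the other mutant libraries of that window.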

How the results depend on the processing

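No called member changed sign. Of 162 single-window differences 160 kept their sign, and hal turned to -0.02 without wildtype replicate 2 and st3gal4 to -0.02 without wildtype replicate 3. The number of members was 299 with a limit of 4.5 and 1554 with 5.5, and 623 to 667 when 1 wildtype replicate was left out. The share at repeated accessions was 33.4% and 8.04% at these limits, and the share on the far part of chromosome 4 was 14.4% and 4.31%. Members that reached 5 in the mutants numbered 0 at a line of 5.5 or 6, 5 when every replicate had to reach 5, 28, 23 and 28 under quantile, median and loess scaling, 38 without the 2 libraries at the ends of the range, and 13 to 26 with 1 replicate left out. The mirrored count was 0 at a line of 5.5 or 6, 35, 40 and 30 under the scalings, 39 without those libraries and 48 to 92 with 1 replicate left out.

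With the replicate block, limma called 5 members higher and 14 lower, and 3621 windows in all against 1790 without it. With block and loess together, tried after the data were seen, it called 14 higher, 3 lower and 3207 in all. With 12 libraries kept apart it called 5 higher and 2969 in all. Under quantile scaling 6 were higher and 1 lower, under loess 5 and 1, and with equal medians 1 was lower. Leaving out 1 replicate gave 1 to 3 higher, 0 to 7 lower and 1056 to 2223 in all. The cause of these shifts was not tested. Unknown depth and the compressed scale limit what can be seen at windows below 4.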
